A study of Mus musculus with 35 samples.

Results

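The comparison described here set 5 days of cold against 3 days of cold in interscapular brown adipose tissue (iBAT), over all genes. Its members are 10 of the 35 libraries of the series, namely the 5 labelled COLD_5days and the 5 labelled COLD_3days. The room temperature mice took no part in the main test. They entered only an alternative fit of all 7 groups and the scaling of the CPM values. Each library came from the iBAT of 1 male C57BL/6J mouse, 9 to 10 weeks old, and 5 mice were used per duration. Mice were housed singly without nesting material at 6 °C for 6 hours or for 1, 2, 3, 4 or 5 days, and the control mice stayed at the colony temperature of 24 °C. All 7 groups shared the strain, the standard chow and, apart from the incubator, the housing light cycle. The reads were 3′ end reads counted per gene, so a level is given here in CPM (counts scaled to the library total with TMM factors), a unit that compares 1 gene between mice and not different genes with each other.

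Brown adipose tissue makes heat. Noradrenaline released by sympathetic nerves onto brown adipocytes starts lipolysis, and the fatty acids activate the uncoupling protein UCP1 and are burned in mitochondria. Prolonged cold enlarges this capacity: glucose uptake, fatty acid synthesis and fatty acid oxidation are all raised together, and progenitors and immune cells of the tissue respond as well. The days between the first response and a steady state are therefore a time when some transcripts level off while others keep moving, and that was the question put to this pair of groups.

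The 10 libraries held between 3945908 and 5709449 counts, so that 1 CPM stood for 3.95 to 5.71 counts. Genes of the mitochondrial genome took 34.7% to 41.3% of the counts after 3 days and 33.6% to 44.6% after 5 days. The single gene Gm42418 took 12.4% to 16.3% after 3 days and 9.44% to 15.3% after 5 days. Fewer counts than the totals were thus left for all other genes. Brown adipocyte markers were detected in full, 8 of 8, and their summed level lay between 7899 and 11114 CPM after 3 days and between 10460 and 14637 CPM after 5 days. Smooth muscle and pericyte markers, 3 of 3 detected, summed to 293 to 355 CPM after 3 days and to 196 to 253 CPM after 5 days; 89.1% to 94.8% of this sum was Rgs5, and Acta2 and Myh11 alone summed to 21.1 to 34.4 CPM and to 12.5 to 21.4 CPM, which overlap. Skeletal muscle markers, 8 of 8 detected, ranged from 2.31 to 454 CPM after 3 days and from 152 to 259 CPM after 5 days, so the 3-day mice differed far more among themselves in these transcripts. Erythroid markers, 5 of 5 detected, ran from 1956 to 3743 CPM after 3 days and from 2709 to 4980 CPM after 5 days. In bulk tissue, fewer cells of a type and less RNA per cell cannot be told apart, and this holds for every result below.

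Of 10540 genes tested with edgeR's quasi-likelihood test, 202 (1.92%) passed an adjusted p of 0.05, with 108 (1.02%) higher and 94 (0.892%) lower after 5 days. With library size as the only scaling the split turned to 49 higher and 100 lower. Of the 79 called genes named here 62 then stayed called by edgeR. Beside the losses given further below, G6pdx, Ffar4, Hsd17b4, Dusp1, Lum, Mmp3 and Pnldc1 missed the threshold, with adjusted p from 0.0508 (Pnldc1) to 0.114 (Dusp1). The 4-day mice, which the test did not use, let the interval be divided into its steps, each fitted alone. Neither step gave a call by edgeR, with 0 of 10843 genes between 3 and 4 days (0.0%, against 845 at an unadjusted p under 0.05, 20 calls by DESeq2 and 0 by limma-voom) and 0 of 10651 between 4 and 5 days (0.0%, against 742 at an unadjusted p under 0.05, 7 calls by DESeq2 and 0 by limma-voom). These comparisons share mice, so their values are only set side by side. No called gene changed its direction when any of the 10 mice was left out, but the number of calls did, from 31 higher and 24 lower without 5-day mouse 4 to 199 higher and 144 lower without 5-day mouse 1. In all 10 of these fits 27 of the 108 higher genes and 21 of the 94 lower genes were called. Of the 79 called genes named here, 33 stayed called without 5-day mouse 4, 37 without 3-day mouse 1, 39 without 3-day mouse 3, 41 without 5-day mouse 3 and 53 without 5-day mouse 5. Leaving out any of the other 5 mice kept between 62 and 74 of them. The highest adjusted p that any of the 79 reached in these fits was 0.143 (Gys2). With all 7 groups in one fit 16 of the 79 missed the threshold: Acly, Fasn, Thrsp, G6pdx, Nsdhl, Gpd1, Ffar4, Gys2, Uqcrfs1, Gpx4, Dusp1, mt-Tc, Cish, Lum, Tap2 and Sdf2l1, with adjusted p from 0.0508 (Gpx4) to 0.196 (mt-Tc). With 3, 4 and 5 days in one fit 13 did: Thrsp, Ffar4, Gys2, Cox7b, Dusp1, Cish, Lum, Myl9, Sdf2l1, Glipr2, Slc7a8, Pnldc1 and Slc29a3, with adjusted p from 0.0508 (Glipr2) to 0.120 (Lum). Beside each gene below stands the number of the 10 fits with 1 mouse left out in which it was called. The calls of any list below are to be set against the 1.02% higher and 0.892% lower of all tested genes. No list was tested as a set.

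**Figure D1:**
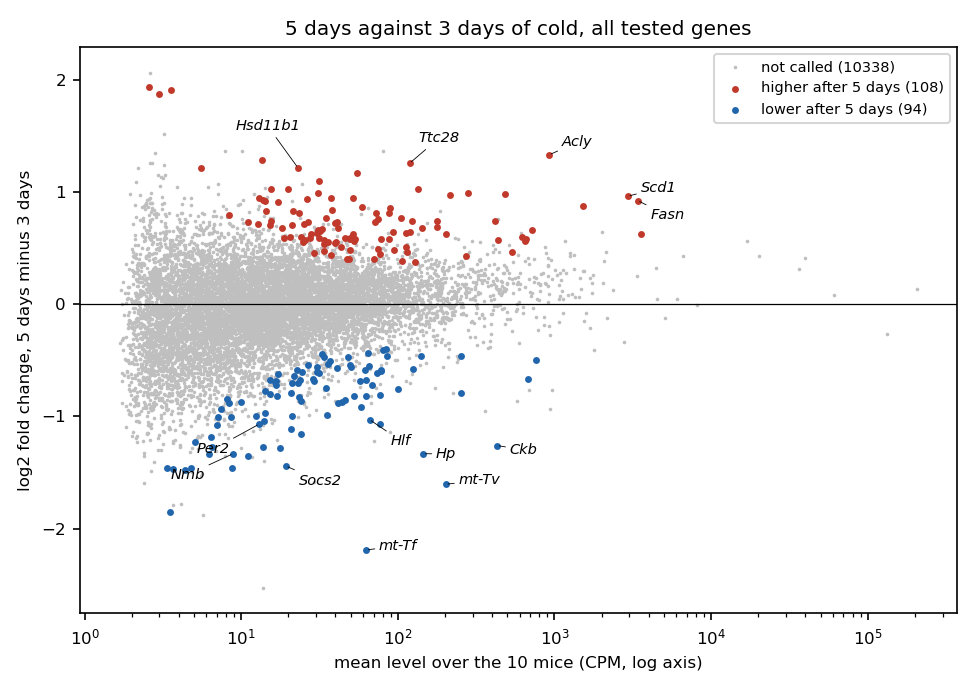
Log2 fold change of 5 days minus 3 days (vertical axis) against the mean level over the 10 mice in CPM (horizontal log axis), 1 point per tested gene; red points are the 108 genes called higher and blue points the 94 called lower. Acly, Scd1 and Fasn stand out as called genes of high level, and mt-Tf lies lowest of the called genes at -2.19.

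Higher levels after 5 days than after 3 days were seen most plainly among the enzymes that make fatty acids. Levels before 3 days are not given for these genes, so a continued rise is not told apart from a return. De novo lipogenesis turns citrate exported from mitochondria into acetyl-CoA, malonyl-CoA and long-chain fatty acids, with NADPH supplied by malic enzyme and the pentose phosphate pathway. Of 20 tested members of this list, 8 rose and 0 fell, against 1.02% of all tested genes called higher, and the median log2 fold change was 0.58 against -0.01 over all tested genes. The called members were Acly, Fasn, Me1, Scd1, Slc25a1 and Acss2, together with Thrsp and G6pdx, which lie outside the rule for named genes and complete the count. The groups did not overlap for Me1, Scd1 and Acss2, as for 4.46% of all tested genes (2.9% in the higher and 1.56% in the lower direction).

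Acly, the enzyme that cleaves cytosolic citrate to acetyl-CoA, lies at chr11:100476353-100528000 (GRCm38, minus strand). Its level in the 5 mice after 3 days was 528, 840, 472, 286 and 482 CPM, and after 5 days it was 1015, 786, 1467, 2206 and 1184 CPM. All but 1 of the 5-day mice exceeded every 3-day mouse. The log2 fold change was 1.33 ± 0.26 (SE, adjusted p = 0.0161 by edgeR's quasi-likelihood test), and it was called in 9 of 10 fits, the exception being the fit without 5-day mouse 4, which was the highest (adjusted p = 0.0520).

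Me1, the cytosolic malic enzyme, read 158, 246, 203, 128 and 199 CPM after 3 days and 342, 316, 394, 481 and 352 CPM after 5 days, so every 5-day mouse lay above every 3-day mouse. Its log2 fold change was 0.99 ± 0.16 (SE, adjusted p = 0.00421 by edgeR, called in 10 of 10 fits). Scd1, the desaturase that makes oleate, read 1994, 2298, 2246, 1127 and 2228 CPM after 3 days and 3527, 3057, 4764, 4515 and 3715 CPM after 5 days, again without overlap. This was a log2 fold change of 0.96 ± 0.18 (SE, adjusted p = 0.0114, 10 of 10 fits). For Scd1 most of the difference fell in the last day, with fitted log2 changes of 0.28 from 3 to 4 days and 0.68 from 4 to 5 days, whereas Acly had 0.88 and 0.45. Neither step passed the test for any gene, and the difference between steps was not tested.

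Acss2, which activates acetate, stood within a narrow band after 3 days (64.7, 66.5, 59.2, 63.8 and 61.9 CPM) and spread out after 5 days (78.0, 103, 130, 177 and 93.9 CPM). All 5-day mice were above the band, and the log2 fold change of 0.86 ± 0.17 (SE, adjusted p = 0.0161) was called in 10 of 10 fits. The citrate carrier Slc25a1 had a log2 fold change of 0.98 ± 0.21 (SE, adjusted p = 0.0260, 6 of 10 fits). Fasn, the fatty acid synthase, went from 2330 ± 924 to 4478 ± 934 CPM (SD, n = 5 each), a log2 fold change of 0.92 (adjusted p = 0.0457) that was called in only 3 of 10 fits. Thrsp, a lipogenic nuclear and cytosolic protein also called Spot 14, and G6pdx, the first enzyme of the pentose phosphate pathway, had log2 fold changes of 0.88 and 0.58 and were called in 5 and 3 of 10 fits. Without 5-day mouse 4 the list kept 3 called members, without 3-day mouse 1 or 3 it kept 4, and without 5-day mouse 3 it kept 5. With all 7 groups in one fit Acly, Fasn, Thrsp and G6pdx missed the threshold (adjusted p = 0.0893, 0.174, 0.0829 and 0.0556).

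**Figure D2:**
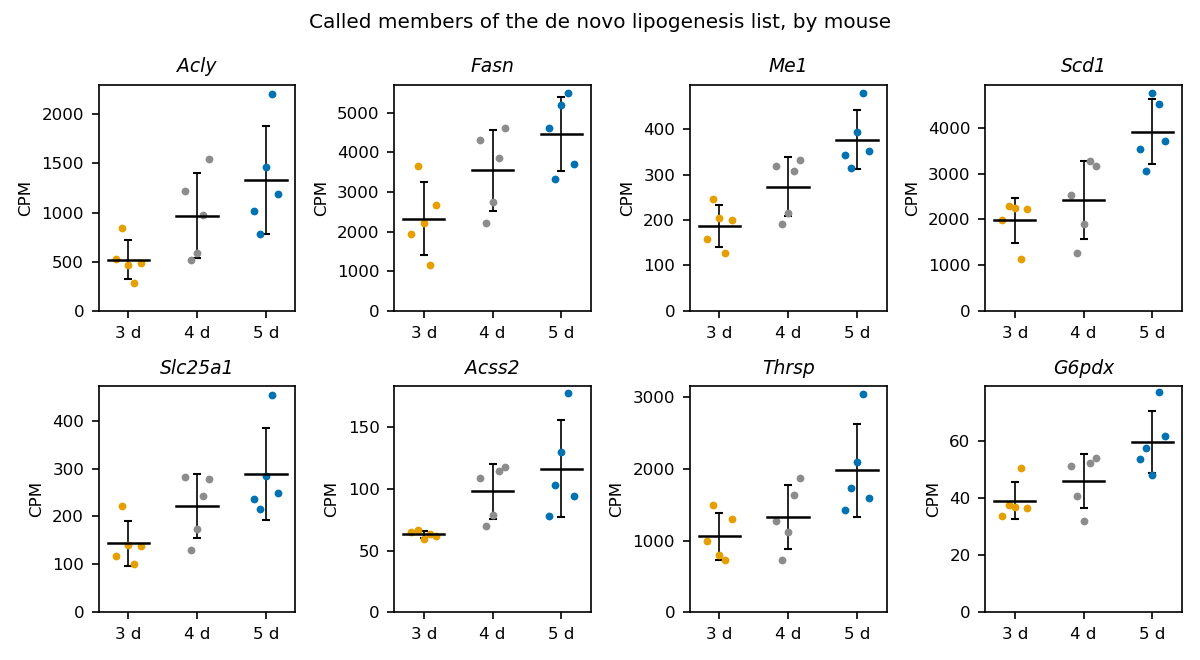
CPM (vertical axis, from 0) of the 8 called members of the de novo lipogenesis list in each mouse after 3, 4 and 5 days of cold; bars are means and whiskers SDs of 5 mice. The 5-day mice of Me1, Scd1 and Acss2 all lie above the 3-day mice, and the 4-day means lie between.

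Neighbouring branches of lipid handling held fewer calls, beside 1.02% of all tested genes called higher. Acsl5, an acyl-CoA synthetase, read 291, 483, 301, 276 and 248 CPM after 3 days and 635, 410, 752, 775 and 629 CPM after 5 days, with 3-day mouse 2 far above its group and within the 5-day range. Its log2 fold change was 0.98 ± 0.18 (SE, adjusted p = 0.0114, 10 of 10 fits). With Ffar4, a receptor for long-chain fatty acids (0.87, adjusted p = 0.0479, 2 of 10 fits), it made up the 2 higher genes among 22 tested members for lipolysis and fatty acid uptake, with 0 lower. In cholesterol synthesis 1 of 21 tested genes rose and 0 fell: Nsdhl, a sterol dehydrogenase, went from 30.5 ± 1.84 to 51.5 ± 10.2 CPM (SD, n = 5 each), a log2 fold change of 0.74 (adjusted p = 0.0104, 10 of 10 fits, but 0.0581 with all 7 groups in one fit). Gpd1, which reduces dihydroxyacetone phosphate to glycerol 3-phosphate, was the called member of the triglyceride list (1 of 21 higher, 0 lower), at 2762 ± 519 and 4333 ± 710 CPM (log2 fold change 0.63, adjusted p = 0.0318, 4 of 10 fits).

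Carbohydrate genes also gave calls in the higher direction only. Of 30 tested genes of glycolysis and glycogen, 4 rose and 0 fell (median log2 fold change 0.22), against 1.02% of all tested genes called higher. Pkm, the pyruvate kinase of most tissues, read 479, 525, 436, 493 and 528 CPM after 3 days and 635, 670, 720, 986 and 768 CPM after 5 days, with no overlap (log2 fold change 0.60, adjusted p = 0.0161, 9 of 10 fits). Ugp2 and Gys2, a UTP-glucose pyrophosphorylase and the glycogen synthase named for liver, had log2 fold changes of 0.68 and 0.77 and were called in 7 and 4 of 10 fits, and Gpi1, which interconverts glucose and fructose 6-phosphates, had 0.57 (4 of 10 fits). With library size as the only scaling, Ugp2, Gys2 and Gpi1 missed the threshold (adjusted p = 0.0938, 0.0718 and 0.0592). Pdhb, a subunit of pyruvate dehydrogenase, went from 522 ± 96.9 to 784 ± 93.8 CPM and was 1 of 2 higher genes among 18 tested for pyruvate handling and glyceroneogenesis (log2 fold change 0.57, adjusted p = 0.0284, 4 of 10 fits). The other was Gpd1. Pcca, a subunit of propionyl-CoA carboxylase, rose in the branched-chain amino acid list (log2 fold change 0.77, adjusted p = 0.0137, 9 of 10 fits; 1 of 19 higher, 0 lower).

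For most oxidative genes the 10 mice bounded the change. The median log2 fold change was 0.27 for the tricarboxylic acid cycle, 0.19 for mitochondrial fatty acid oxidation and 0.23 for the nuclear genes of the respiratory chain, beside the 0.22 of glycolysis and glycogen, and no difference between lists was tested. A gene was counted as bounded when the whole 95% interval of its log2 fold change lay within a 2-fold change either way, which held for 79.9% of all tested genes. It held for 100% of 36 cytosolic ribosome genes, 100% of 19 genes of the tricarboxylic acid cycle, 95.5% of 22 genes of mitochondrial fatty acid oxidation and 94.7% of 57 nuclear genes of the respiratory chain. Within a 1.5-fold change lay 91.7% of the ribosome genes and 81.8% of the fatty acid oxidation genes, against 43.7% of all tested genes; genes of high level have narrower intervals. Called members numbered 0 in the cycle, 0 in oxidation and 2 in the chain, against 1.02% of all tested genes called higher. Most members of these oxidative lists had values above 0 (16 of 19 for the cycle, 20 of 22 for oxidation and 50 of 57 for the chain). Over all tested genes 5098 of 10540 had values above 0. Members of any list here share the same mice, so a common direction is not independent evidence. Cox7b, a subunit of cytochrome c oxidase, and Uqcrfs1, the Rieske protein of complex III, were the 2, both higher, with log2 fold changes of 0.74 (adjusted p = 0.0448, 2 of 10 fits) and 0.46 (adjusted p = 0.0478, 3 of 10 fits). With library size as the only scaling both missed the threshold (adjusted p = 0.0747 and 0.0828).

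Beside 1.02% of all tested genes called higher, 1 of the 15 tested genes of brown adipocyte identity rose and 0 fell. This was Ppara, a nuclear receptor for fatty acids and activator of their oxidation, which read 133, 143, 172, 183 and 159 CPM after 3 days and 262, 254, 294, 216 and 216 CPM after 5 days. The groups were apart, and the log2 fold change of 0.63 ± 0.12 (SE, adjusted p = 0.0122) was called in 10 of 10 fits. Ppara stood at 311 ± 46.0 CPM at room temperature and already at 245 ± 14.5 CPM after 4 days, with fitted log2 changes of 0.62 from 3 to 4 days and 0.01 from 4 to 5 days. Hsd17b4, the peroxisomal bifunctional enzyme of fatty acid oxidation, was the called gene of 23 peroxisomal genes (log2 fold change 0.64, adjusted p = 0.0239, 5 of 10 fits).

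Calls among the genes that the study labels by their timing in the cold stand beside 1.02% of all tested genes called higher and 0.892% called lower. These lists were chosen by the study on this series, so they are not independent evidence of a direction. Of 6 genes labelled acute, 1 rose (Ffar4) and 0 fell. Ucp1, the uncoupling protein, read 5242, 5898, 4285, 6778 and 5572 CPM after 3 days and 5802, 7478, 7987, 8859 and 7929 CPM after 5 days. The groups overlapped and the log2 fold change of 0.43 missed the threshold (95% interval 0.15 to 0.72, adjusted p = 0.0958), while DESeq2 called it (adjusted p = 0.0235 by its Wald test). Ppargc1a, a coactivator of mitochondrial genes, had 132 ± 52.9 and 239 ± 61.8 CPM (log2 fold change 0.83, adjusted p = 0.0629), and Dio2, which activates thyroid hormone, had 438 ± 96.7 and 341 ± 86.3 CPM (-0.38, adjusted p = 0.247). Of 9 genes labelled chronic, 2 rose (Acly and Fasn) and 0 fell, with the other 7 at log2 fold changes between 0.21 (Insig1) and 0.33 (Elovl3). Elovl3, an elongase of brown fat, held 363, 483, 357, 360 and 592 CPM after 3 days and 530, 564, 506, 543 and 601 CPM after 5 days, and its 95% interval of 0.05 to 0.61 leaves no change beyond 2-fold.

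Several further genes rose without any overlap of the groups. Ttc28, a tetratricopeptide repeat protein, had the lowest p of all genes: it read 59.9, 71.5, 71.3, 70.0 and 75.0 CPM after 3 days and 184, 168, 149, 164 and 179 CPM after 5 days. Its log2 fold change was 1.26 ± 0.10 (SE, adjusted p = 3.37e-06, 10 of 10 fits), and the 4-day mice lay between, at 124 ± 40.5 CPM. Mtor, the kinase that couples nutrients and growth signals to protein and lipid synthesis, read 47.2, 61.2, 48.0, 60.3 and 44.9 CPM after 3 days and 79.9, 79.9, 91.7, 105 and 111 CPM after 5 days. This was a log2 fold change of 0.82 ± 0.12 (SE, adjusted p = 0.00421, 10 of 10 fits). Impa2, an inositol monophosphatase, and Acbd4, an acyl-CoA binding domain protein, had log2 fold changes of 0.95 and 0.84 (adjusted p = 0.00314 each, 10 of 10 fits each). Nudt4, Ybx2, Leng1, Tmem45b and the predicted gene Gm15241 had log2 fold changes between 0.99 and 1.17 and were called in 10 of 10 fits each. The same held for the predicted gene Gm42778 at 1.10, while Pnldc1 and Rmdn2, of low level, had 1.29 and 1.22 and were called in 5 and 6 of 10 fits.

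Proteasome genes gave 3 calls, all higher, among 30 tested, against 1.02% of all tested genes called higher. Psmb5, the subunit with the chymotrypsin-like activity, read 25.0, 19.4, 17.1, 18.4 and 19.3 CPM after 3 days and 30.0, 35.1, 28.0, 33.7 and 40.4 CPM after 5 days, and it rose by a log2 fold change of 0.74 (adjusted p = 0.0137, 10 of 10 fits). Psma1 and Psmd14 had log2 fold changes of 0.40 and 0.56 and were called in 4 of 10 fits each. Dnajb1, a cochaperone of Hsp70, and Gpx4, the peroxidase that reduces lipid hydroperoxides, were the single called genes of their lists (0.72 and 0.56; 1 of 18 and 1 of 27 higher, called in 5 and 3 of 10 fits). With library size as the only scaling, these 5 genes missed the threshold, with adjusted p from 0.0509 to 0.132.

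Among the genes that fell were 4 of the circadian clock, Hlf, Tef, Per2 and Per3. The clock is a loop in which CLOCK and BMAL1 (encoded by Arntl) bind E-boxes and drive the Per and Cry repressors, and the PAR-bZIP factors DBP, TEF and HLF, which bind D-boxes, carry the rhythm to metabolic genes. Of 17 tested members, 4 fell and 0 rose, against 0.892% of all tested genes called lower, while 13 were not called; the median over the list was -0.39 (log2 fold change), with 12 members below 0 and 5 above. All 4 were called in 10 of 10 fits, and under each of the other alternatives as well, where the number of lower members lay between 4 and 6. Promoter letters are shown for 2 of the 4, because the windows of Tef and Per3 hold matches to the letters of the E-box or the D-box. The motif is in capitals, and each stretch is read 5′ to 3′ on the strand of its gene. Sequences and windows are those of RefSeq (GRCm38.p6).
Tef, upstream start site, E-box, plus strand, chr15:81802535-81802562: tgctgtggctcCACGTGctgcagctggc
Tef, downstream start site, E-box, plus strand, chr15:81811265-81811292: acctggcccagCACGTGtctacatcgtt
Per3, first D-box, minus strand, chr4:151044852-151044881: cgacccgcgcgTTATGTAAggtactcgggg
Per3, second D-box, minus strand, chr4:151044805-151044834: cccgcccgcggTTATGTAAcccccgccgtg

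The windows ran from 250 bases before to 50 bases after each start, and both strands were searched. Of 32851 windows, 7.15% held the E-box CACGTG, 2.32% the D-box TTANGTAA and 1.24% the sterol element TCACNCCAC. Of the 10448 windows of genes tested here these shares were 10.1%, 1.49% and 1.2%. Windows were found for 3 of the 4 clock genes, 4 windows in all, and 2 of them held the E-box (both of Tef) and 1 the D-box (Per3, at 205 and 158 bases before the start). The window of Hlf held neither. For the lipogenic genes that rose, 7 of 8 had windows, 8 in all, of which 0 held the sterol element or the D-box and 1 held the E-box (Slc25a1). A match is a description of these letters and not a bound site.

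Hlf, at chr11:90336536-90390895 (GRCm38, minus strand), read 94.6, 89.7, 86.1, 89.7 and 81.4 CPM after 3 days and 41.9, 40.4, 51.3, 44.9 and 41.0 CPM after 5 days. The groups were far apart with little spread in either, and the log2 fold change of -1.03 ± 0.10 (SE, adjusted p = 4.43e-05) had the lowest p of the lower genes. Tef read 71.96, 51.4, 53.5, 41.0 and 48.3 CPM after 3 days and 36.7, 26.9, 26.1, 32.1 and 24.5 CPM after 5 days (log2 fold change -0.88, adjusted p = 0.00850). Per2 read 16.0, 17.8, 21.9, 12.8 and 19.3 CPM and then 10.8, 5.96, 6.68, 8.42 and 10.5 CPM (-1.07, adjusted p = 0.0133). Per3 read 25.2, 14.1, 17.96, 16.8 and 19.8 CPM and then 9.29, 8.16, 9.26, 11.9 and 7.44 CPM (-1.04, adjusted p = 0.0104). In none of the 4 genes did the groups overlap.

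The remaining 13 clock genes were not called in the main fit, which does not show that they were unchanged. Of the 17 tested members 8 were bounded within a 2-fold change. Dbp, Arntl and Nr1d1 were chosen for mention after their values were seen. Dbp had 15.1 ± 6.33 and 8.73 ± 3.12 CPM (log2 fold change -0.82, adjusted p = 0.140), Arntl 7.32 ± 3.45 and 5.64 ± 2.11 CPM (-0.39, adjusted p = 0.569) and Nr1d1, the repressor REV-ERBα, 23.5 ± 7.64 and 28.7 ± 5.65 CPM (0.26, adjusted p = 0.530). Over the whole course Hlf did not move one way: its mean was 118 CPM at room temperature, 26.0 CPM after 1 day, 41.9 CPM after 2 days, 88.3 CPM after 3 days, 68.1 CPM after 4 days and 43.9 CPM after 5 days. The hour of the day at which tissue was taken is not given in the sources used here, so the phase of the clock at collection and the duration of cold cannot be told apart.

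**Figure D3:**
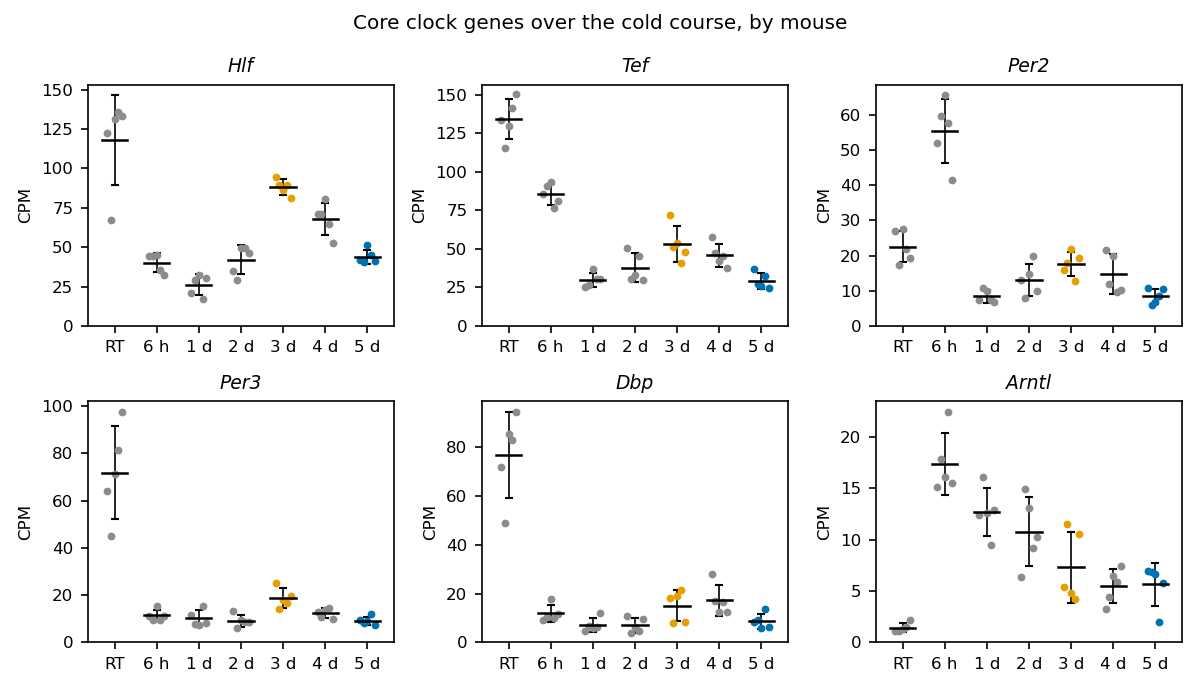
CPM (vertical axis, from 0) of 6 core clock genes in each mouse at room temperature (RT) and after 6 hours to 5 days of cold; 3-day mice are orange and 5-day mice blue, bars are means and whiskers SDs of 5 mice. Hlf, Tef, Per2 and Per3 are higher after 3 days than after 5 days in every mouse, while the groups overlap for Dbp and Arntl.

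Genes that glucocorticoids control gave calls in both directions, 2 higher and 3 lower of 17 tested, the list's median being -0.13 (log2 fold change). Over all tested genes 1.02% were called higher and 0.892% lower. Hsd11b1, the enzyme that regenerates active glucocorticoid within the cell, read 15.1, 11.6, 14.1, 12.2 and 15.9 CPM after 3 days and 26.8, 27.8, 21.5, 41.5 and 44.0 CPM after 5 days. Its log2 fold change was 1.22 ± 0.19 (SE, adjusted p = 0.00421, 10 of 10 fits). Nearly all of this fell in the last day, with 0.16 from 3 to 4 days and 1.06 from 4 to 5 days. The second higher member was Dusp1, a phosphatase of MAP kinases and an immediate early gene (0.68, adjusted p = 0.0400, 4 of 10 fits). Tsc22d3, the glucocorticoid-induced leucine zipper GILZ, read 33.7, 31.2, 26.9, 24.9 and 38.0 CPM after 3 days and 17.5, 17.7, 15.3, 17.8 and 17.7 CPM after 5 days. The 5-day mice lay close together below all 3-day mice (log2 fold change -0.86, adjusted p = 0.00421, 10 of 10 fits). Errfi1, a feedback inhibitor of EGF receptor signalling, and Ddit4, an inhibitor of mTORC1, had log2 fold changes of -1.01 and -1.16 and were called in 7 and 5 of 10 fits.

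The remaining lower genes of large change or low p had other roles. Ckb, the brain-type creatine kinase, which in brown fat belongs to a creatine cycle that dissipates energy, read 633, 437, 541, 752 and 659 CPM after 3 days and 261, 323, 240, 205 and 252.3 CPM after 5 days. Every 5-day mouse lay below every 3-day mouse, with a log2 fold change of -1.26 ± 0.14 (SE, adjusted p = 0.000340, 10 of 10 fits). Its course had a mean of 57.8 CPM at room temperature, 792 CPM after 2 days and 256 CPM after 5 days, so the 5-day level was still above that of the control mice. Ckb was the single call among 14 tested genes of futile cycles and heat production, against 0.892% of all tested genes called lower. Nmb, a bombesin-like peptide, read 11.6, 13.4, 9.07, 14.3 and 14.9 CPM and then, after 5 days, 5.19, 4.19, 5.17, 5.68 and 5.03 CPM (-1.33, adjusted p = 0.00314, 10 of 10 fits); Sec11a shares exons with it on the same strand, and their reads may be split.

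Socs2 and Cish, feedback inhibitors of cytokine and growth hormone receptors that signal through STAT5, were both among the lower genes of largest change. Socs2 read 22.7, 21.7, 24.9, 19.3 and 52.6 CPM after 3 days and 9.72, 13.5, 10.1, 10.6 and 8.44 CPM after 5 days (log2 fold change -1.44, adjusted p = 0.00794, 10 of 10 fits). Mouse 5 of the 3-day group lay well above the others, and without it the log2 fold change was -1.10. Cish read 16.8, 32.9, 22.2, 12.2 and 40.8 CPM and then 11.5, 9.71, 5.60, 10.8 and 14.1 CPM (-1.28, adjusted p = 0.0318, 4 of 10 fits). Hp, the haemoglobin-binding haptoglobin, went from 208 ± 91.9 to 83.9 ± 35.1 CPM (-1.33, adjusted p = 0.0290, 5 of 10 fits). Trps1, a GATA-type repressor, and the low-level genes Dnm3, Glipr2, AU020206, Slc29a3, Slc7a8 and Slco3a1 had log2 fold changes between -1.48 and -1.23; Trps1 was called in 10 of 10 fits, AU020206 in 9, Glipr2 and Slc29a3 in 6, Dnm3 in 5, Slc7a8 in 4 and Slco3a1 in 1. The same held for n-R5-8s1, a 5.8S ribosomal RNA gene, at -1.35 (8 of 10 fits), an RNA that carries no poly(A) tail in its mature form.

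Counts on 3 mitochondrial tRNA genes were lower too. The largest change of any called gene with at least 20 counts on average was that of mt-Tf, the phenylalanine tRNA at positions 1 to 68 of the mitochondrial genome, which read 128, 90.9, 93.5, 66.7 and 137 CPM after 3 days and 35.7, 26.0, 10.1, 16.1 and 26.7 CPM after 5 days (log2 fold change -2.19 ± 0.26, adjusted p = 0.000377, 10 of 10 fits). mt-Tv, the valine tRNA at 1025 to 1093, read 289, 251, 286, 250 and 444 CPM and then 107, 132, 59.9, 80.9 and 127 CPM (-1.61 ± 0.20, adjusted p = 0.000691, 10 of 10 fits). These lie on either side of the 12S ribosomal RNA mt-Rnr1 (70 to 1024), whose level did not pass the test (0.08, 95% interval -0.19 to 0.36, adjusted p = 0.769), and next to mt-Rnr2 (0.13, adjusted p = 0.720). Looked at after these values were seen, 13 of the 22 tRNA genes of the mitochondrial genome were tested. All 13 had values below 0 (median -0.77), beside 5442 of 10540 over all tested genes. Of these 13, 3 fell and 0 rose, against 0.892% of all tested genes called lower. The third was mt-Tc with -0.67, which missed the threshold with all 7 groups in one fit (adjusted p = 0.196). The libraries were primed on poly(A), and reads on a short tRNA gene may belong to a longer transcript that runs across it, so these values are uncertain as levels of the mature tRNAs.

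**Figure D4:**
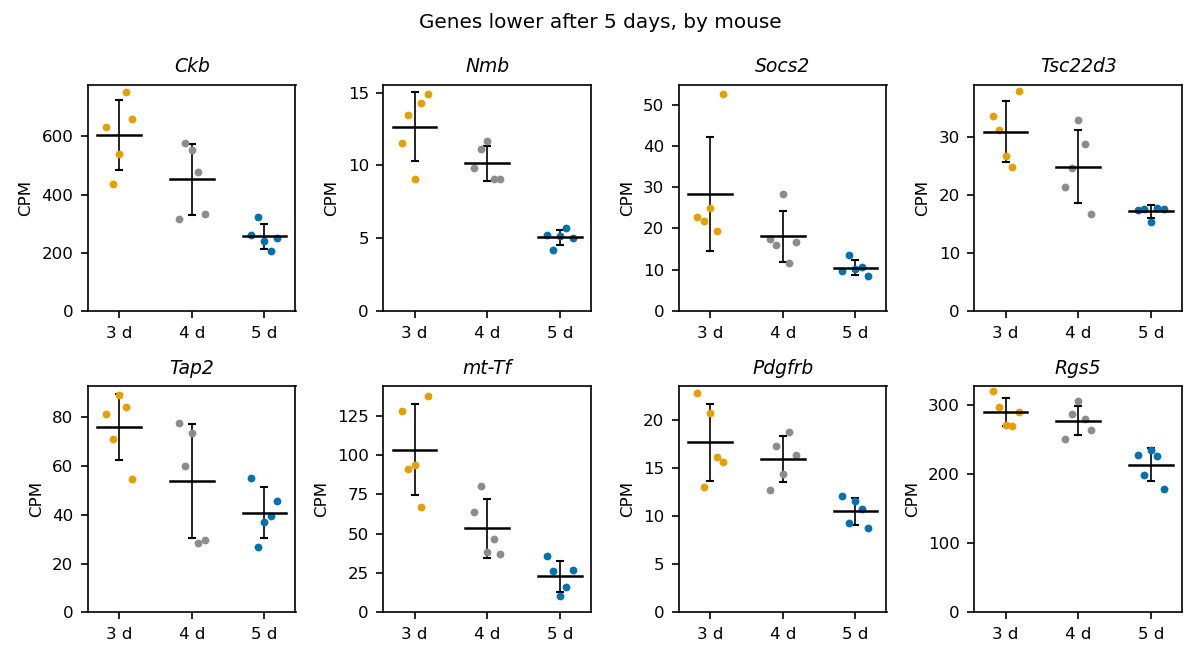
CPM (vertical axis, from 0) of 8 genes called lower after 5 days, in each mouse after 3, 4 and 5 days of cold; bars are means and whiskers SDs of 5 mice. For Ckb, Nmb, Socs2, Tsc22d3, mt-Tf, Pdgfrb and Rgs5 every 5-day mouse lies below every 3-day mouse, and for Tap2 they overlap.

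Some genes of the vessel wall and the stroma were lower after 5 days. Of 11 tested genes of vascular smooth muscle and pericytes 3 fell, 0 rose and 8 were not called (median log2 fold change -0.52), and of 12 tested genes common to stromal progenitors 3 fell, 0 rose and 9 were not called (median -0.51), against 0.892% of all tested genes called lower. None of the 6 was called in more than 6 of 10 fits. Rgs5, a pericyte regulator of G protein signalling, read 321, 298, 272, 270 and 290 CPM after 3 days and 228, 199, 236, 226 and 179 CPM after 5 days, with no overlap (-0.46, adjusted p = 0.0284, 6 of 10 fits). Notch3, the Notch receptor of mural cells, and Myl9, a myosin light chain of smooth muscle, had log2 fold changes of -0.85 and -0.88 and were called in 3 of 10 fits each. Pdgfrb, the PDGF-B receptor, read 22.9, 13.02, 20.8, 16.2 and 15.7 CPM and then 12.1, 9.27, 11.6, 10.8 and 8.85 CPM (-0.78, adjusted p = 0.0397, 4 of 10 fits). Cd34, a sialomucin of progenitors and endothelium, and Lum, a small proteoglycan of the matrix, had -0.69 and -0.80 and were called in 1 and 3 of 10 fits. Pdgfra, which the study holds to mark adipose stromal cells most clearly, was tested and not called. The study finds Cd34 and Pdgfrb in further stromal vascular cells too. In the lists for the study's stromal subtypes ASC1, ASC2 and ASC3, 0 of 8, 0 of 7 and 0 of 6 tested genes were called. Their medians were -0.35, -0.20 and -0.17. The summed smooth muscle and pericyte markers given above are mostly Rgs5 and so restate its values.

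Endothelial and matrix lists followed with fewer calls, beside 0.892% of all tested genes called lower. Flt1, a VEGF receptor, was the called gene of 22 tested (-0.46, adjusted p = 0.0478, 3 of 10 fits), and Timp3 and Mmp3, an inhibitor and an enzyme of matrix breakdown, were those of 31 tested matrix genes (-0.58 and -1.47, 6 and 1 of 10 fits). Of 18 tested collagens 0 were called by edgeR, yet 16 had values below 0 (median -0.51), beside 5442 of 10540 over all tested genes. Col4a1, of the basement membrane, had 232 ± 17.3 and 185 ± 19.1 CPM (-0.35, adjusted p = 0.0718). Igfbp5, a binding protein for insulin-like growth factors, went from 70.0 ± 8.91 to 44.2 ± 8.55 CPM (-0.69, adjusted p = 0.0213, 8 of 10 fits), and Nnmt, which methylates nicotinamide and is high in white fat, from 104 ± 18.8 to 50.5 ± 24.2 CPM (-1.07, adjusted p = 0.0256, 8 of 10 fits). In the unfolded protein response list 2 of 23 tested genes fell and 0 rose. These were Pdia3, a disulfide isomerase (-0.46, 4 of 10 fits), and Sdf2l1, an ER chaperone partner (-1.46, 6 of 10 fits).

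Interferon-stimulated genes varied widely between mice, and of the immune lists described here that of MHC class I presentation held a call, Tap2. Of 22 tested interferon-stimulated genes 0 were called, all 22 had values below 0 (median -0.73), and only 9.09% were bounded within 2-fold. Rsad2, the antiviral viperin, read 419, 93.4, 389, 455 and 58.3 CPM after 3 days and 278, 61.1, 30.6, 94.6 and 367 CPM after 5 days: each group held mice near the top and near the bottom of the whole range (-0.79, 95% interval -2.02 to 0.43, adjusted p = 0.476). The median SD of these genes within a group was 1.11 log2 units after 3 days and 1.01 after 5 days, against 0.27 and 0.28 over all tested genes. Since the genes share the same mice, their common direction is not independent evidence. Among chemokines 0 of 16 were called, with 15 below 0 (median -0.75), and the same limit holds. The macrophage lists had smaller medians of the SD. That of 20 lipid-associated genes was 0.28 after 3 days and 0.26 after 5 days, near that of all genes. This list also holds genes that other lists here share, such as Lpl and Cd36, so its median is not that of macrophages alone. The 5 tested genes labelled delayed, among them its members Gpnmb, Lgals3 and Trem2, had 1.26 and 1.27. For 17 resident macrophage genes the median SD was 0.39 and 0.37, and 82.4% were bounded within 2-fold. In both macrophage lists 0 were called by edgeR. Tap2, a peptide transporter of MHC class I presentation, was the called member of 11 (-0.92, adjusted p = 0.0114, 10 of 10 fits, but 0.104 with all 7 groups in one fit), with 76.0 ± 13.6 and 40.8 ± 10.5 CPM. Over all tested genes 0.892% were called lower.

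Of the genes the study labels as delayed, which mark proliferation and lipid-handling macrophages, 5 of 7 were tested, 0 were called and all 5 were below 0 (median -0.68). The study places the peak of proliferation and immune cell recruitment around the day that lies between 3 and 5 days of cold. A rise and fall within that interval would not appear in this difference, so it cannot show whether these genes had settled. Their levels on the day between are not given here. Gpnmb, of such macrophages, read 83.3, 5.37, 82.0, 35.4 and 12.1 CPM after 3 days and 27.7, 6.40, 2.15, 7.25 and 31.0 CPM after 5 days (-1.58, 95% interval -2.92 to -0.24, adjusted p = 0.184). Top2a and Mki67, which mark dividing cells, had 17.6 ± 5.08 and 14.03 ± 7.17 CPM and 9.15 ± 2.92 and 8.40 ± 2.55 CPM (adjusted p = 0.577 and 0.812). Lgals3 and Trem2 had log2 fold changes of -0.68 and -0.98 (adjusted p = 0.545 and 0.462). Spp1 and Birc5 were too low for the test across genes, and the exact two-sided permutation test over all splits of the 10 mice gave p = 0.0873 and p = 0.984. At this spread the intervals of Gpnmb, Lgals3 and Trem2 reached beyond a 2-fold decrease, and only 1 of the 5 tested genes was bounded within 2-fold either way.

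**Figure D5:**
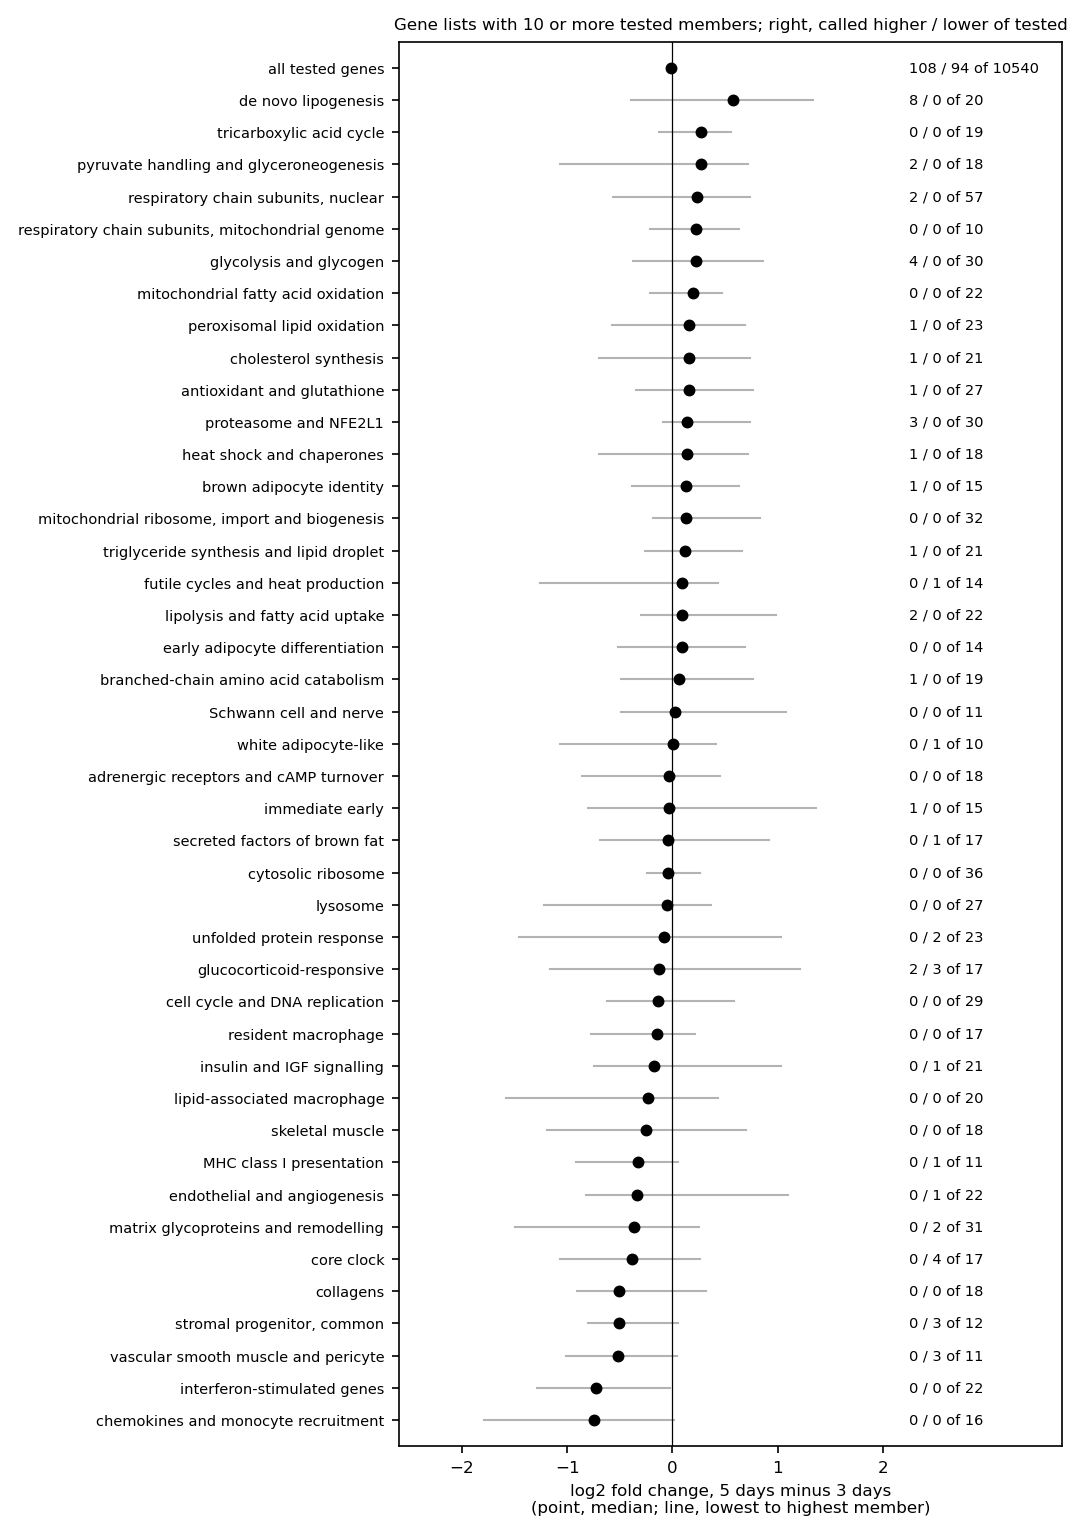
Log2 fold change of 5 days minus 3 days for each gene list with at least 10 tested members: points are medians, lines run from the lowest to the highest member, and the numbers on the right give members called higher, called lower and tested. De novo lipogenesis has the highest median (0.58) with 8 of 20 higher, and the vessel wall, stromal, collagen, interferon and chemokine lists have medians at or under -0.51.

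The 4-day mice placed the called genes on a course. The 4-day mean lay between the 3-day and 5-day means in 108 of 108 higher and 94 of 94 lower genes, against 51.0% of all tested genes; a wide distance between the outer means makes this more likely, so it is given as a description. For higher genes the median step was 0.38 log2 units from 3 to 4 days and 0.33 from 4 to 5 days, and for lower genes it was -0.37 and -0.37. The median gene thus moved about equally on both days, while the fitted steps of Ppara and Hsd11b1 were unequal.

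Exons of several named genes overlap those of another gene on the opposite strand, among them Me1, Acss2, Acsl5, Tef, Timp3 and Tap2, and Pkm shares exons with a transcript on its own strand. The strand setting of the counting is not given in the sources used here, so part of the counts of these genes could belong to the neighbour.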

How the data were processed

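Libraries were made from the iBAT of 35 mice with a poly(A)-primed 3′ end kit (QuantSeq FWD) that marks strand. Per the labels and the study's methods, reads were aligned with STAR 2.6.1d to GRCm38 and counted per gene of the Ensembl annotation of GRCm38 with HTSeq 0.11.2; the strand setting is not given in the sources used here. The deposited values are raw counts per gene for 55421 genes, and the authors normalized them no further in this table.

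The 5-day and 3-day libraries alone (n = 5 each) were compared with edgeR 4.0.16 in R 4.3.3: TMM scaling, filterByExpr by group, the quasi-likelihood test and Benjamini-Hochberg adjustment at 0.05. SE was the log2 fold change divided by the square root of F, and intervals are 95%. CPM values use TMM factors, and log2 values for single genes a prior count of 2. The 4-day libraries entered separate fits of each step. Single genes were also tested with an exact two-sided permutation test. DESeq2 1.42.0 and limma-voom (limma 3.58.1), other scalings, filters and sets of mice, and a replicate block served as alternatives, and the scripts were tested on simulated data. A replicate number is only a label. A p-value sets the difference between the groups against the spread between mice within them, a spread that edgeR shares in part across genes.

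The comparison and its 55 gene lists were chosen with earlier results of these data known. Named genes are the 15 largest called changes in each direction with a mean of at least 20 counts, the 5 lowest p in each direction, up to 4 called members per list (in a list without calls, the 2 of highest count, not all of which are described) and the study's labelled genes; others are marked as chosen after their values were seen. Library totals of 3945908 to 5709449 counts limit the precision of genes below about 5 CPM.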

Additional observations from a re-analysis of the deposited data

Results flagged for a closer look

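In 250 groups of 5 mice (the genes named here, the marker sums and the library totals, each after 3 and after 5 days), 16 held a mouse whose distance to its nearest neighbour exceeded 0.71 of the group's range. Chance alone does so in about 1 in 20 groups. After 3 days, mouse 5 stood high for Socs2 (52.6 CPM, next 24.9), mt-Tv (444 CPM, next 289) and Slc7a8 (37.2 CPM, next 17.5). Mouse 4 was low for Scd1 (1127 CPM, next 1994) and high for G6pdx (50.5 CPM, next 37.6). Mouse 2 was high for Acsl5 (483 CPM, next 301) and for the summed neutrophil markers (2.27 CPM, next 1.35), and mouse 1 for Flt1 (121.5 CPM, next 95.7).

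After 5 days, mouse 4 stood high for Slc25a1 (454 CPM, next 283) and Tmem45b (61.1 CPM, next 40.4) and low for Arntl (1.96 CPM, next 5.83) and Dio2 (193 CPM, next 352). Mouse 3 was low for Tsc22d3 (15.3 CPM, next 17.5) and Igfbp5 (29.1 CPM, next 46.8), and mouse 2 high for Ddit4 (27.4 CPM, next 13.8) and Slc25a34 (96.2 CPM, next 67.4).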

How the results depend on the processing

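No gene called between 3 and 5 days changed its direction under any alternative run, and RLE scaling, limma-voom, leaving out the mitochondrial genome and Gm42418, a mean of at least 20 counts and the fit of 3, 4 and 5 days kept both counts within 1.5 times of 108 higher and 94 lower. DESeq2 gave 320 and 239, all 7 groups in one fit 191 and 154, and library size alone 49 higher (with 100 lower). Without a filter on low counts there were 346 and 385, and the steps went from 0 to 65 higher and 76 lower (3 to 4 days) and to 40 and 58 (4 to 5 days). In that fit the degrees of freedom behind each gene rose from 17.1 to 198072, so nearly 1 common spread was assumed for all genes, and Gpnmb passed with an adjusted p of 6.67e-21; bounded genes fell to 34.9% and the lipogenic list had 13 higher members. DESeq2 called 9 and 11 genes in the first step and 1 and 6 in the second. The lipogenic list had 5 higher members with all 7 groups. Of the 79 called genes named here, 62 stayed called with library size alone, 63 with all 7 groups, 66 with 3, 4 and 5 days in one fit, 40 with the replicate block and 75 or more with every other alternative that kept all mice.

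With a replicate block 39 genes were higher and 35 lower, and 4 lipogenic genes were higher. Replicate numbers did not pair the mice: same-numbered mice correlated in their deviations between -0.208 and 0.123, and not every mouse correlated best with its own number. Leaving out 1 mouse gave 31 to 199 higher and 24 to 144 lower genes, 3 to 10 lipogenic members, 4 clock members throughout, 0 to 1 lower genes in each step and a bounded change in 74.4% to 76.6% of genes. The exact permutation test called 82 genes on each log scale, of the 143 that the rule for named genes gives, not all of which are described here. Many of the 143 were chosen because edgeR called them in the same 10 mice, so this number is not independent support. Values near 0 changed sign for Birc5 (log2 difference 0.035 on rlog values), Rplp1 (log2 fold changes from -0.058 to 0.022 with 1 mouse left out) and Insig1 (from -0.000836 to 0.319). Where no cause is given, the cause was not tested. Depth limits genes under about 5 CPM.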

Other observations

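Lists outside the comparisons above gave values without calls. Of 14 tested genes of early adipocyte differentiation 0 were called by edgeR and 85.7% were bounded within 2-fold, and of 27 lysosomal genes 0 were called and 88.9% were bounded. All 5 cold-inducible RNA-binding genes were bounded. Of 29 tested genes of cell cycle and DNA replication 0 were called, 19 lay below 0 and 55.2% were bounded. The 7 tested erythroid genes all had values above 0 and 0 were called; Hbb-bs, a beta globin, had 1562 ± 422 CPM after 3 days and 2480 ± 589 CPM after 5 days, a difference that missed the threshold in edgeR (0.65 on the log2 scale, adjusted p = 0.0638), and DESeq2 called it (adjusted p = 0.0115). Rplp1, of the cytosolic ribosome, had 630.3 ± 45.9 and 628 ± 52.1 CPM (log2 fold change -0.03, 95% interval -0.23 to 0.18).

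Usp2, a deubiquitinase with a circadian rhythm in many tissues, was named after its values were seen: 77.1 ± 17.0 CPM after 3 days and 48.8 ± 5.85 CPM after 5 days (-0.68 on the log2 scale, adjusted p = 0.0210 by edgeR, called in 7 of 10 fits with 1 mouse left out). Ifi27l2a and Cxcl12, the interferon and chemokine genes of highest count, had log2 fold changes of -0.45 (adjusted p = 0.300) and -0.33 (adjusted p = 0.211). mt-Tc, the cysteine tRNA gene, had 830 ± 134 and 530.1 ± 103 CPM and was called in 6 of 10 such fits.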
